A study of Homo sapiens with 8 samples.

Results

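The genes described here are 31 genes of cholesterol and fatty acid synthesis, named from textbook pathways and taken by symbol from the 23391 genes of the count table. They were chosen with earlier results of these data known, so the shares of all tested genes beside their counts are a description and not a test. The sterol arm holds 22 of them, which are 18 enzymes of the route from acetyl-CoA to cholesterol and 4 regulators and carriers, and the fatty acid arm holds 9. All 31 passed the filter on low values, which asked for 1 cpm or more in 2 or more libraries and which 13856 genes passed. The unit cpm scales the counts of a gene to a common total of its library, after TMM normalization. One row is listed under an older name, SC5DL for SC5D.

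RNA was sequenced from DU145 cells, an androgen-independent human prostate cancer line, in 8 libraries of 4 groups with 2 biological replicates each. DU145-pc3.1 cells carried the empty vector pcDNA3.1-zeo (+), and DU145-Esrrb cells carried the same vector with Esrrb, an orphan nuclear receptor related to the estrogen receptors. Both lines were zeocin-selected pools of stable transfectants. According to the paper, RNA came from cells kept in phenol-red free medium with charcoal-stripped serum. Both lines received either vehicle or DY131, a synthetic agonist of the estrogen-related receptors beta and gamma. DY131 was given at 3 μM for a time that is not given in the sources used here. The design therefore asks what Esrrb does without its agonist, what DY131 does in each pool, and whether the response to DY131 depends on Esrrb.

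Cholesterol is built from acetyl-CoA through mevalonate, isoprenoid diphosphates, squalene and lanosterol, and fatty acids are built from the same acetyl-CoA through malonyl-CoA. Most genes of both routes are targets of the SREBP transcription factors, encoded by SREBF1 and SREBF2, which are held in the endoplasmic reticulum by INSIG proteins when sterols are plentiful and released when sterols are scarce. Many prostate tumours make their own fatty acids and cholesterol, and FASN is often abundant in them.

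The libraries held between 7858743 and 11551690 counted reads. ESRRB lay between 0 and 0.29 cpm in the 4 libraries of control cells, at 8.83 and 9.10 cpm in DU145-Esrrb cells, and at 13.7 and 16.2 cpm in the DY131-treated DU145-Esrrb cells, so each library went with its labelled pool. Reads of the transgene and of the endogenous gene cannot be told apart. The 5 epithelial markers summed to between 2503 and 3166 cpm in every library. One of them, the adhesion gene CDH1, was at 165 and 157 cpm without and at 78.9 and 113 cpm with DY131 in DU145-pc3.1 cells, and at 114 and 107 against 62.3 and 73.2 cpm in DU145-Esrrb cells. It was lower with DY131 in both pools, and its part in the results was not tested. KRT8 was higher with DY131 in both pools, with log2 fold changes of 0.24 in DU145-pc3.1 and 0.38 in DU145-Esrrb cells. KRT19 gave -0.24 and 0.18 in the same order, EPCAM 0.17 and -0.28, and KRT18 0.20 and -0.21. Of these values, EPCAM in DU145-pc3.1 cells and KRT18 in both pools did not pass an adjusted p of 0.05 by edgeR. KLK3, a marker of prostate luminal cells, had no read in any library. Of the leukocyte markers, CD68 lay between 59.3 and 93.5 cpm, and PTPRC and CD3E were at or near 0. The pair of libraries from control cells given DY131 stood farther apart than the other pairs, with a chi-square per degree of freedom of 7.30 against 1.29 to 2.67, and results that rest on one of them are given with and without it. Since values are shares of each library's reads, fewer cells of a type and less RNA per cell cannot be told apart.

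The promoters of the 4 members with the largest fall in DY131-treated DU145-Esrrb cells are shown because they lead the results in that group. The sequences are the 250 bases before the annotated start, 5′ to 3′ on the gene's strand, from RefSeq on GRCh38.p14. Capitals mark a CCAAT box, the pentamer bound by NF-Y, a partner of SREBP at many sterol-regulated promoters, in either orientation. ACSS2 has 2 annotated starts.
TM7SF2, chr11:65111622-65111871, plus strand: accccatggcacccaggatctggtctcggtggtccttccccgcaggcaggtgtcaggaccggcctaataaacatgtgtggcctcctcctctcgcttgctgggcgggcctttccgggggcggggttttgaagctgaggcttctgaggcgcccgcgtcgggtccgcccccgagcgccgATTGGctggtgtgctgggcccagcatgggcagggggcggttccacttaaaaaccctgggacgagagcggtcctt
ACSS2 (start 1), chr20:34874739-34874988, plus strand: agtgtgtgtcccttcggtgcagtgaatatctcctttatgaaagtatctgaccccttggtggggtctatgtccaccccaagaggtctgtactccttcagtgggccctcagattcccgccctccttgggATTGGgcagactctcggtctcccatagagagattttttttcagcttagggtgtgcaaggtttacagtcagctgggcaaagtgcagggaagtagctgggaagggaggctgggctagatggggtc
ACSS2 (start 2), chr20:34876362-34876611, plus strand: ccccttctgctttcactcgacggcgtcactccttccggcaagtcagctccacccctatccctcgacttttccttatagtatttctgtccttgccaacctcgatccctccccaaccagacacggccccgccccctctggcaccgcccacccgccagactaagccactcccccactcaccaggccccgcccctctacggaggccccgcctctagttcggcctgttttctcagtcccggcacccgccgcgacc
FDPS, chr1:155308616-155308865, plus strand: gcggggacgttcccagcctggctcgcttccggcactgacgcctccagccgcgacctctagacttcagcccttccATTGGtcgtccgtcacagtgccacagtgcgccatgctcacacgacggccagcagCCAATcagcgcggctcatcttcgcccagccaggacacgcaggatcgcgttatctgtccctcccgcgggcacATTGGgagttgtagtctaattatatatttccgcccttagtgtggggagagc
LSS, chr21:46228775-46229024, minus strand: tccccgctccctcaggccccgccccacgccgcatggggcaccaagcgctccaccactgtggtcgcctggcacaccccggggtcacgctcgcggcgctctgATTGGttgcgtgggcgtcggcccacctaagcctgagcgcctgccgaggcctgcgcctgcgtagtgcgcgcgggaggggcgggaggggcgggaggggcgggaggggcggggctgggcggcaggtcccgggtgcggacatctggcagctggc

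TM7SF2, ACSS2 and LSS each held a CCAAT box in at least 1 of these windows, and FDPS held 3, at 176, 122 and 51 bases before the start. Over the members, 27 of 31 had an entry in the promoter table, and ACAT2, FDFT1, SQLE and FASN had none. The letters CCAAT stood on one strand or the other in 20 of the 27 (74.1%), with 16 of 19 in the sterol arm and 4 of 8 in the fatty acid arm, compared with 37.0% of all 27305 genes in the table and 41.3% of the 9630 tested genes that matched it by symbol. The GC box GGGCGG stood in 26 of 27 members, compared with 46.2% of all genes and 75.4% of the matched tested genes. The sterol regulatory element written as TCACNCCAC stood only in the SREBF2 window, compared with 1.09% of all genes and 1.23% of the matched tested genes. The E-box CACGTG stood in SC5DL and INSIG1 (7.41%), compared with 7.73% of all genes and 11.1% of the matched tested genes. The extended response element of the estrogen-related receptors, TNAAGGTCA, stood in none of the members, compared with 1.05% and 0.717%. These 5 motifs were searched on both strands. A match describes the letters in this window and no more.

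In untreated DU145-pc3.1 cells, levels per length of transcript spanned a wide range. SCD, the desaturase that makes oleate, was the highest at 335 ± 0.731 cpm per kb (SD, n = 2). FDPS, the synthase of farnesyl diphosphate, followed at 212 ± 12.9 cpm per kb and FDFT1, which commits farnesyl diphosphate to squalene, at 191 ± 6.93 cpm per kb. STARD4, a carrier of cholesterol between membranes, was the lowest at 7.86 ± 0.166 cpm per kb. In the middle of the order, ACAT2 (48.0 ± 5.38) and SC5DL (47.9 ± 0.285) did not differ beyond their spread, and neither did LSS (13.4 ± 0.309) and LPIN1 (13.1 ± 0.723) near its lower end, all as cpm per kb. Summed over the sterol arm, the levels were 3095 and 3166 cpm in the 2 libraries, and over the fatty acid arm 3766 and 3725 cpm.

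**Figure D1:**
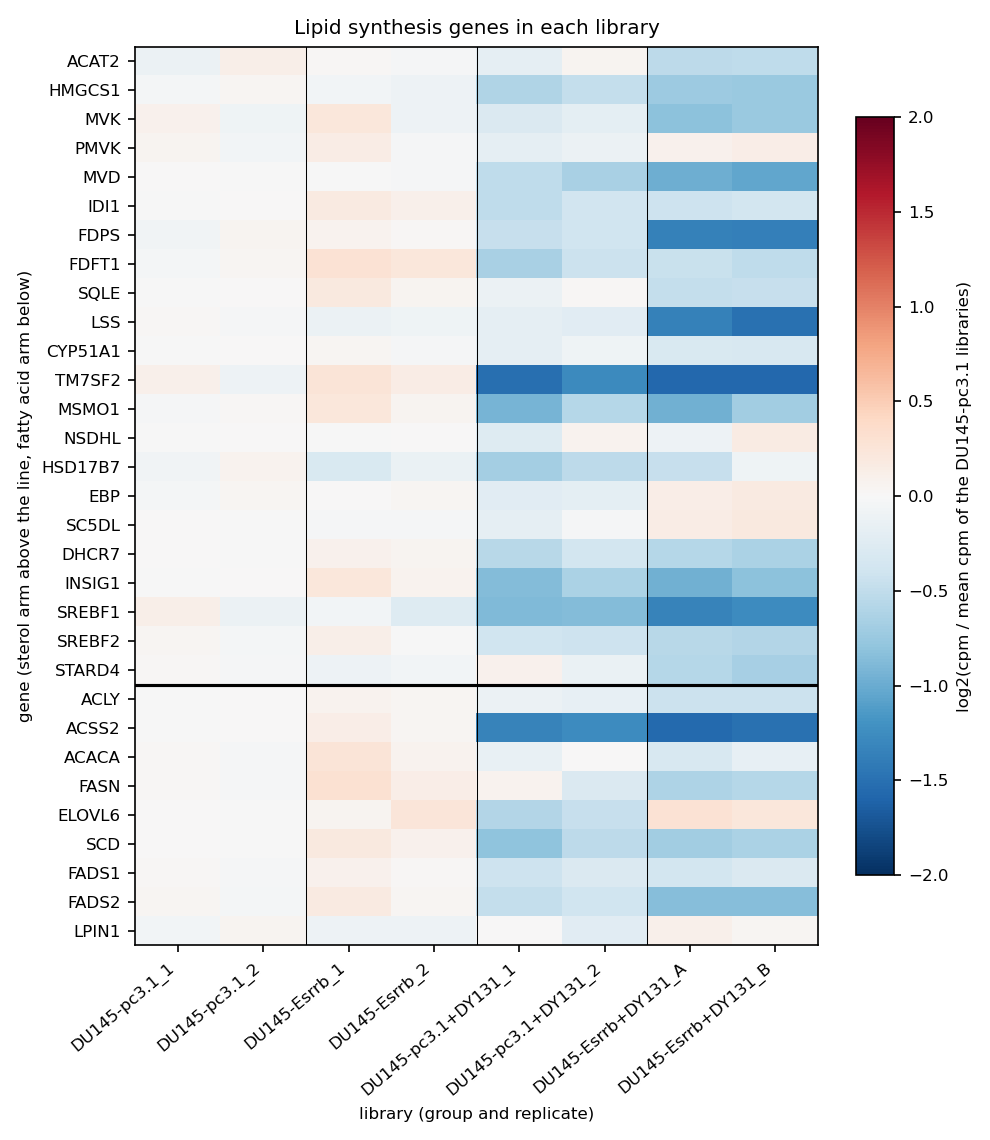
Heat map of the 31 genes (rows) in the 8 libraries (columns), colored by log2 of the cpm over the mean cpm of the DU145-pc3.1 libraries. Blue marks lower levels and spreads over most rows of the 4 DY131-treated libraries, deepest for TM7SF2 and ACSS2 in both pools and for FDPS and LSS in DU145-Esrrb cells.

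Esrrb without its agonist left these genes close to the control. Of the 31 members, 1 passed edgeR's quasi-likelihood test at an adjusted p under 0.05, and it rose, compared with 1.68% of all tested genes that rose and 2.50% that fell. None passed the fold threshold as well, compared with 0.577% of all tested genes in either direction. By edgeR's exact test and by DESeq2 that count was also 0, and the fitted log2 fold changes of the members lay between -0.22 and 0.26. The member was FDFT1, at 405 and 427 cpm in the control cells and at 508 and 489 cpm in DU145-Esrrb cells. Its groups did not overlap, and its log2 fold change was 0.26 ± 0.07 (SE, adjusted p = 0.0348 by edgeR's quasi-likelihood test). The median log2 fold change was 0.04 over the sterol arm and 0.11 over the fatty acid arm, compared with 0.00 over all tested genes. The count rests on single libraries, as it was 0 without any one of the untreated libraries or of the DY131-treated DU145-Esrrb libraries, and 4 without either library of DY131-treated DU145-pc3.1 cells.

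DY131 lowered members of both arms in cells without the transfected receptor. In DU145-pc3.1 cells 18 of the 31 members fell and none rose, compared with 18.5% of all tested genes that fell and 18.9% that rose. All 31 fitted log2 fold changes were below 0. The median was -0.42 over the sterol arm and -0.35 over the fatty acid arm, with 13 of 22 and 5 of 9 members past the test. Over the 18 sterol enzymes alone, without the regulators and carriers, the median was -0.34. The median over all tested genes was 0.00. Summed over the sterol arm, the level was 2276 and 2484 cpm, which is 76.0% of the untreated pool, and over the fatty acid arm it was 2663 and 2844 cpm, or 73.5%. Without SCD the fatty acid arm stood at 83.1%.

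Of the 31 members, 2 also passed the fold threshold in the control pool, both lower, compared with 3.16% of all tested genes. TM7SF2, a sterol C14-reductase of the steps after lanosterol, was at 41.1 and 35.7 cpm in untreated and at 13.5 and 16.0 cpm in treated DU145-pc3.1 cells. The groups did not overlap, and the log2 fold change was -1.38 ± 0.11 (SE, adjusted p = 3.82e-07 by edgeR). ACSS2, which makes acetyl-CoA from acetate, was at 75.1 and 76.5 cpm before and at 29.9 and 31.7 cpm after treatment. Its log2 fold change was -1.30 ± 0.08 (SE, adjusted p = 1.93e-08 by edgeR).

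Of the 4 regulators and carriers, 3 fell in the control pool. SREBF1, the SREBP gene that drives mainly fatty acid synthesis, was at 62.8 and 53.2 cpm in untreated and at 31.6 and 31.8 cpm in treated cells. Both treated libraries lay below both untreated ones, and the log2 fold change was -0.87 ± 0.10 (SE, adjusted p = 7.65e-06 by edgeR). INSIG1, itself a target of the SREBPs, fell by 0.74 on the log2 scale, and SREBF2, the SREBP gene for the cholesterol route, fell by 0.41. STARD4 gave 38.5 and 32.9 cpm in treated cells against 36.7 and 35.7 cpm, which overlapped.

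Among the enzymes before squalene, HMGCS1 (HMG-CoA synthase), MVD (mevalonate diphosphate decarboxylase), IDI1 (the isomerase of isopentenyl diphosphate), FDPS and FDFT1 fell in the control pool by between 0.43 and 0.57 on the log2 scale. ACAT2, MVK and PMVK, which act at the entry and at the mevalonate phosphorylations, did not pass, with log2 fold changes of -0.06, -0.24 and -0.15. After squalene, MSMO1 (the C4-methylsterol oxidase) fell by 0.74 and DHCR7 (the last reductase of cholesterol synthesis) by 0.46 on the log2 scale. SQLE, LSS and CYP51A1, which turn squalene into lanosterol and remove its C14 methyl group, gave -0.05, -0.20 and -0.14 and did not pass. HSD17B7 fell by 0.60 and EBP by 0.21 on this scale, but HSD17B7 lost its call with DESeq2 and without replicate 2 of the untreated control cells, and EBP in 7 alternatives, which include DESeq2, either untreated control library left out and replicate 1 of the treated ones left out. In the fatty acid arm, SCD fell from 1800 and 1794 cpm to 1024 and 1244 cpm, the elongase ELOVL6 fell by 0.52, and the desaturases FADS1 and FADS2 fell by 0.35 and 0.43 on the log2 scale. The trunk of the pathway, ACLY, ACACA and FASN, did not pass in these cells, with log2 fold changes of -0.14, -0.07 and -0.10. FASN rested on single libraries, as it gave -0.27 and passed without replicate 1 of the treated control cells and gave 0.07 without replicate 2. ACLY passed in 4 alternatives, one of them without the same replicate 1 at -0.15, and ACACA passed at -0.31 when length and GC content were corrected for.

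**Figure D2:**
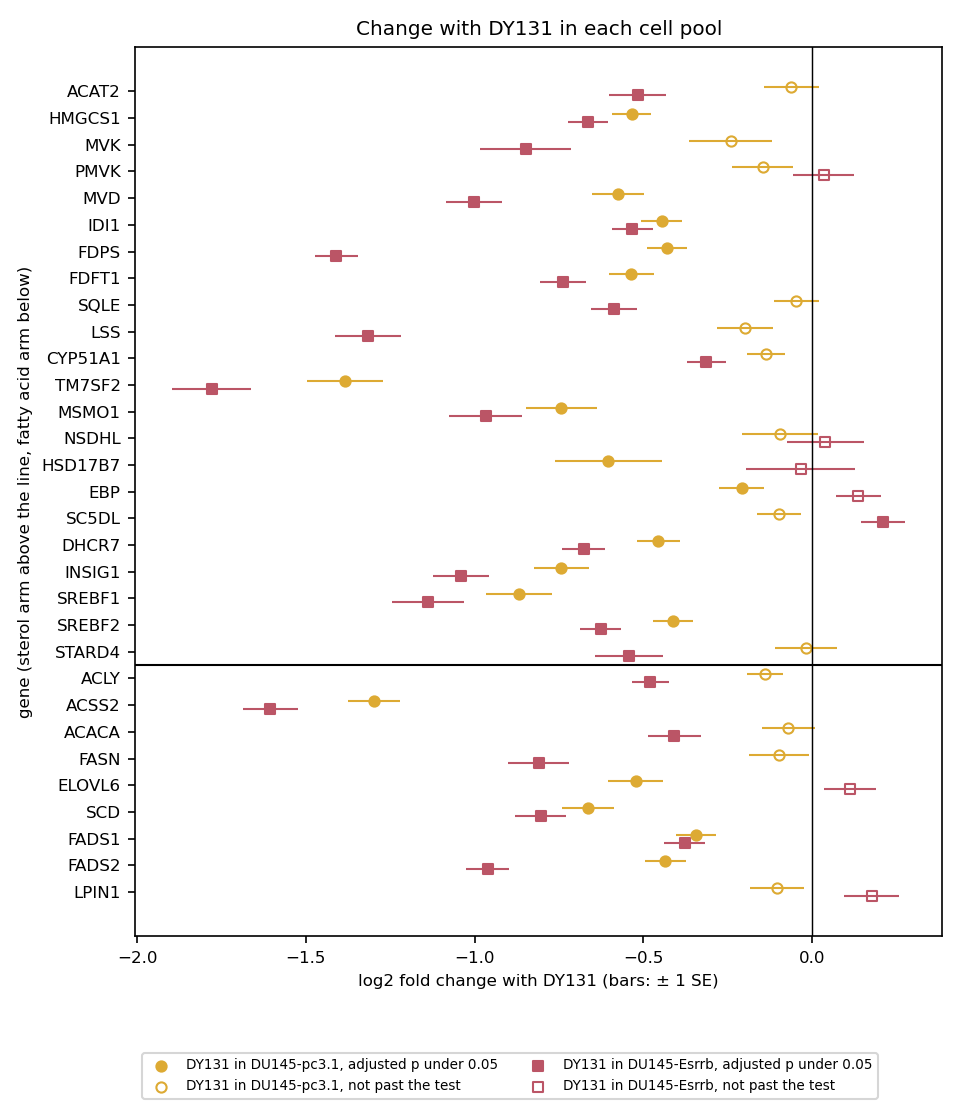
Log2 fold change with DY131 (x axis, bars ± 1 SE) of each gene (y axis) in DU145-pc3.1 cells (circles) and DU145-Esrrb cells (squares), filled where the adjusted p was under 0.05. Circles all lie below 0, and squares lie farther to the left for most genes, with 6 genes on the other side of 0, which are ELOVL6, EBP, SC5DL, LPIN1 and, close to it, PMVK and NSDHL.

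In DU145-Esrrb cells DY131 lowered 24 of the 31 members and raised 1, compared with 29.5% of all tested genes that fell and 29.2% that rose. The median log2 fold change was -0.64 over the sterol arm, with 17 of 22 members lower, and -0.48 over the fatty acid arm, with 7 of 9 lower. Over all tested genes it was 0.00. The summed level of the sterol arm was 2092 and 2104 cpm, 63.9% of the untreated pool, and that of the fatty acid arm was 2510 and 2590 cpm, or 62.6%, and 67.7% without SCD. Beyond the fold threshold 7 members lay lower and none higher, compared with 9.04% of all tested genes that were lower.

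TM7SF2 was at 45.8 and 42.7 cpm in untreated and at 12.9 cpm in both treated DU145-Esrrb libraries. The log2 fold change was -1.78 ± 0.12 (SE, adjusted p = 8.64e-09 by edgeR). ACSS2 was at 82.7 and 77.8 cpm without and at 25.8 and 26.9 cpm with DY131, a log2 fold change of -1.60 ± 0.08 (SE, adjusted p = 5.27e-10 by edgeR). In both genes the treated libraries lay far below the untreated ones, close to the levels of treated control cells.

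FDPS was at 329 and 318 cpm without and at 123 and 121 cpm with DY131. Its log2 fold change was -1.41 ± 0.06 (SE, adjusted p = 1.22e-10 by edgeR), and the treated libraries also lay below those of treated control cells, at 226 and 238 cpm. LSS, the lanosterol synthase, was at 37.1 and 37.8 cpm without and at 15.8 and 14.4 cpm with DY131. Its log2 fold change was -1.32 ± 0.10 (SE, adjusted p = 3.33e-08 by edgeR), while its 4 libraries of control cells stayed between 34.4 and 40.8 cpm.

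SREBF1 went from 55.7 and 48.4 cpm to 23.1 and 24.2 cpm, a log2 fold change of -1.14 ± 0.11 (SE, adjusted p = 3.21e-07 by edgeR). INSIG1 went from 138 and 125 cpm to 60.8 and 67.4 cpm, a log2 fold change of -1.04 ± 0.08 (SE, adjusted p = 6.62e-08 by edgeR). MVD went from 57.7 and 57.4 cpm to 29.3 and 28.1 cpm, a log2 fold change of -1.003 ± 0.083 (SE, adjusted p = 9.26e-08 by edgeR), just inside the fold threshold. MSMO1 at -0.97 and FADS2 at -0.96 lay just outside it. In these genes too no treated library reached an untreated one.

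**Figure D3:**
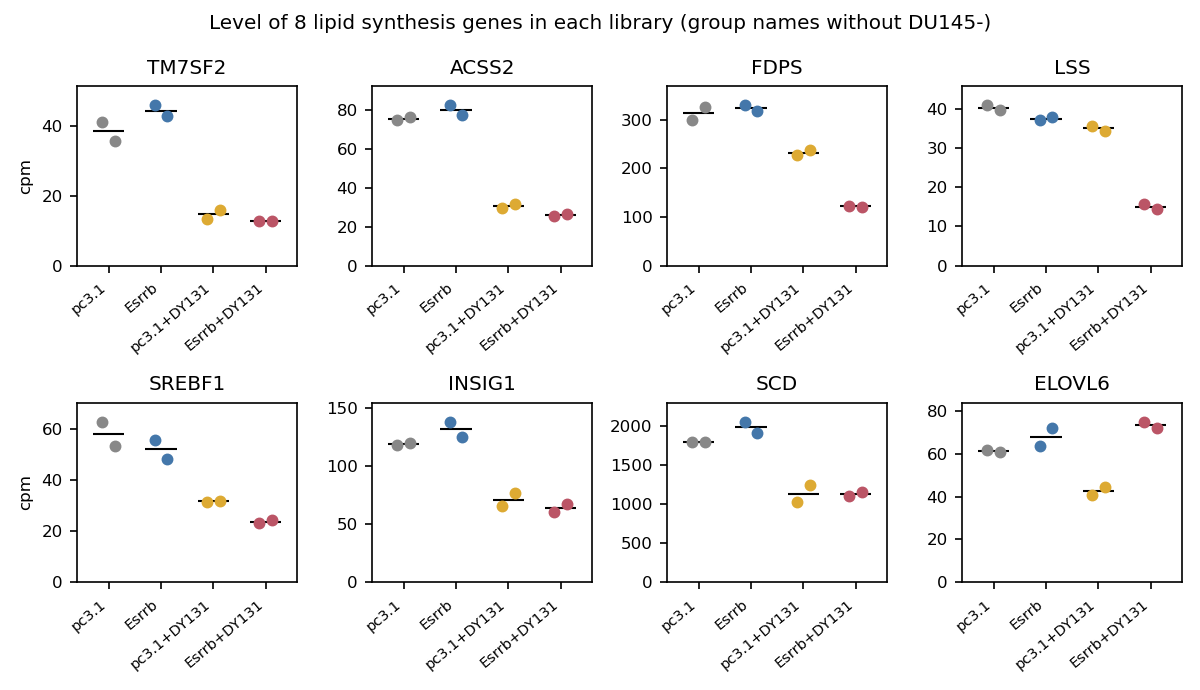
Level in cpm (y axis) of 8 genes in each library (points) of the 4 groups (x axis), with the group mean as a line. TM7SF2, ACSS2, SREBF1, INSIG1 and SCD are low in both treated groups, FDPS and LSS are lowest in treated DU145-Esrrb cells, and ELOVL6 is low in treated DU145-pc3.1 cells.

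Of the 7 members that did not fall in DU145-Esrrb cells, NSDHL, HSD17B7, EBP and SC5DL act in the late sterol route. SC5DL, the sterol C5-desaturase, rose from 106 cpm in both untreated libraries to 120 and 124 cpm, a log2 fold change of 0.21 ± 0.07 (SE, adjusted p = 0.0124 by edgeR), and it lost the call without either untreated DU145-Esrrb library or without 1 of the treated ones. EBP, the sterol isomerase, was at 82.7 and 85.9 cpm against 76.1 and 77.3 cpm and did not pass. NSDHL and PMVK gave log2 fold changes of 0.04 and 0.03. ELOVL6 and the phosphatidate phosphatase LPIN1 gave 0.11 and 0.18 and did not pass. The 9 members that fell in DU145-Esrrb cells and did not pass in control cells were ACAT2, MVK, SQLE, LSS, CYP51A1, STARD4, ACLY, ACACA and FASN. The interaction term passed for 8 of them and not for CYP51A1, at -0.18.

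The 2 comparisons of DY131 share no library. Of the 18 members that fell in control cells, 15 (83.3%) also fell in DU145-Esrrb cells, where they made up 62.5% of the 24. Over all tested genes 62.4% of those that fell in control cells fell in DU145-Esrrb cells, where they made up 39.3%. The 15 held both SREBP genes, INSIG1, 8 sterol enzymes, ACSS2 and the 3 desaturases SCD, FADS1 and FADS2.

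The response to DY131 differed between the pools for 15 of 31 members by the interaction term, 12 lower and 3 higher in DU145-Esrrb cells, compared with 17.6% and 16.1% of all tested genes. LSS alone passed the fold threshold, compared with 4.74% of all tested genes that were lower. Its interaction was -1.12 ± 0.13 on the log2 scale (SE, adjusted p = 1.53e-05 by edgeR). FDPS followed with -0.98 ± 0.09 (SE, adjusted p = 8.64e-07 by edgeR). FASN, the fatty acid synthase, was at 346 and 332 cpm in control cells and at 354 and 278 cpm with DY131, whereas in DU145-Esrrb cells it went from 418 and 370 cpm to 221 and 229 cpm. Its interaction was -0.71 ± 0.13 (SE, adjusted p = 0.000565 by edgeR). MVK, SQLE, FADS2, STARD4, ACAT2, MVD, ACLY, ACACA and ACSS2 had interactions between -0.61 and -0.31. Of these, ACSS2 lost the call in 10 alternatives, ACACA and MVK in 6 each and MVD in 3.

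ELOVL6 went the other way. It was at 61.8 and 60.7 cpm in control cells and at 40.9 and 44.3 cpm with DY131, but at 63.7 and 72.1 cpm in DU145-Esrrb cells and at 75.0 and 71.9 cpm with DY131. The interaction was 0.64 ± 0.11 on the log2 scale (SE, adjusted p = 0.000551 by edgeR). EBP and SC5DL had interactions of 0.35 and 0.31, which lost the call in 3 and 8 alternatives, DESeq2 among them for both. For TM7SF2, SREBF1, INSIG1 and SCD the interaction did not pass, with -0.40, -0.27, -0.30 and -0.14, which does not show that both pools responded alike. With the share of exon junctions corrected for, INSIG1 and SCD passed, at -0.41 and -0.32. The count of 15 was 9 with DESeq2, and it was 25 without replicate 1 of DY131-treated DU145-pc3.1 cells.

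Among cells that all received DY131, 14 members were lower and 4 higher in DU145-Esrrb than in DU145-pc3.1 cells, compared with 25.3% and 25.1% of all tested genes. LSS alone passed the fold threshold, compared with 6.06% of all tested genes that were lower, at a log2 fold change of -1.22 ± 0.10 (SE, adjusted p = 1.44e-07 by edgeR). FDPS gave -0.93 ± 0.06 (SE, adjusted p = 1.76e-08 by edgeR) and ELOVL6 0.78 ± 0.08 (SE, adjusted p = 1.72e-06 by edgeR). The other members that were higher were PMVK, EBP and SC5DL, with log2 fold changes between 0.25 and 0.37, and PMVK lost the call in 6 alternatives, DESeq2 among them. This comparison shares its libraries with those of DY131 above. SCD gave 0.01 and did not pass, but -0.14 without replicate 1 of DY131-treated DU145-pc3.1 cells, where it was past the test.

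A property of the transcripts moved with the results in DY131-treated DU145-Esrrb cells. Reads were 50 bases long, and the share of a transcript's 50-base windows that cross an exon junction had a median of 16.1% over the members and of 14.3% over the 13666 tested genes with a value. Over these genes Spearman's correlation of this share with the log2 fold change was 0.01 for DY131 in DU145-pc3.1 cells and -0.37 for DY131 in DU145-Esrrb cells, across genes of the same libraries, and the median log2 fold change in DU145-Esrrb cells went from 0.26 in the lowest decile of the share to -0.55 in the highest decile. LSS with 35.9%, FDPS with 34.3%, ACLY with 31.5% and ACSS2 with 30.3% are rich in junctions, while INSIG1 with 8.27%, ELOVL6 with 4.83% and SCD with 4.61% are poor in them.

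With the trend over all genes removed, 25 members passed for DY131 in DU145-Esrrb cells, 22 lower and 3 higher. The 22 had also fallen before the correction, but the 3 that were higher, NSDHL (0.30), HSD17B7 (0.50) and LPIN1 (0.30), had not passed before it. Of the members, 3 instead of 7 passed the fold threshold, which were TM7SF2 at -1.48, ACSS2 at -1.19 and INSIG1 at -1.12. FDPS then gave -0.87, LSS -0.74, MVD -0.74 and SREBF1 -0.94, all still past the test. ACLY and ACACA lost their calls, at -0.02 and -0.09, and so did SC5DL, the member that had risen, at 0.14. In control cells 17 members fell after the same correction and TM7SF2 and ACSS2 kept the fold threshold. For the interaction 13 members passed, 9 lower and 4 higher. LSS at -0.58, FDPS at -0.49, FASN at -0.50 and STARD4 at -0.70 stayed lower, ELOVL6 at 0.46 stayed higher, HSD17B7 at 1.06 and LPIN1 at 0.36 passed as higher, and ACSS2, ACLY, ACACA, MVK, MVD and SC5DL lost their calls. What sets this trend was not tested.

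**Figure D4:**
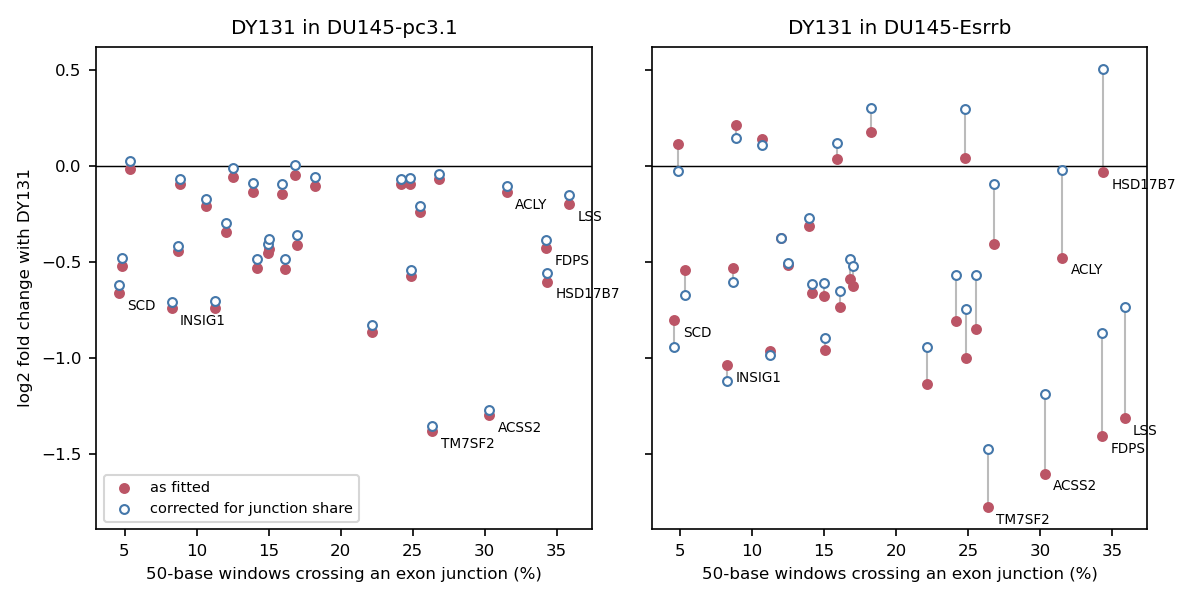
Share of a gene's 50-base windows that cross an exon junction (x axis, percent) against the log2 fold change with DY131 (y axis) in DU145-pc3.1 (left) and DU145-Esrrb cells (right), as fitted (filled) and corrected for the trend over all genes (open), with lines joining both values of a gene. On the left the pairs lie close together, and on the right the junction-rich genes such as LSS, FDPS and ACLY move up by the most.

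HSD17B7 shares 51.1% of its 50-base windows with its pseudogene HSD17B7P2, and its level, between 7.76 and 13.03 cpm, gave no change with DY131 in DU145-Esrrb cells as fitted but 0.50 after the junction correction. CYP51A1 shares 88.9% of its windows with an overlapping locus. Both are uncertain, as are FADS1 and FADS2, which overlap on opposite strands of chromosome 11, because the handling of strand and shared reads is not given in the sources used here.

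Other genes of both pathways also changed. In DU145-pc3.1 cells DY131 lowered 12 and raised 3 of 26 other tested genes of sterol synthesis, uptake and sensing, and it lowered 13 and raised 4 of 39 other tested genes of fatty acid and glycerolipid metabolism. The medians were -0.22 and 0.00 on the log2 scale, and the shares of all tested genes were 18.5% lower and 18.9% higher. In DU145-Esrrb cells 15 of the 26 fell and 3 rose, with a median of -0.40, and 14 of the 39 fell and 11 rose, with a median of -0.09. Over all tested genes 29.5% fell and 29.2% rose, and the counts for the 39 lay near these shares. FADS3, a relative of the desaturases, was at 49.1 ± 5.52 cpm in untreated and 16.0 ± 0.527 cpm in treated DU145-Esrrb cells (SD, n = 2), a log2 fold change of -1.61. TECR, the last reductase of the elongation cycle, fell by 1.43, the glucose-responsive factor MLXIPL by 1.09 and the oxysterol receptor gene NR1H3 by 1.01 on the log2 scale. MLXIPL and NR1H3 were at low levels. MLXIPL went from 8.49 and 6.16 cpm to 2.61 and 4.18 cpm, and NR1H3 from 3.82 and 3.49 cpm to 1.69 and 1.92 cpm. In DU145-pc3.1 cells the elongase ELOVL3 fell by 1.41, at a level of 2.06 ± 0.0525 cpm before treatment. AGPAT1, an acyltransferase of glycerolipid synthesis, was higher in treated DU145-Esrrb than in treated DU145-pc3.1 cells, by 1.11 on the log2 scale, from 3.51 ± 0.0566 cpm to 7.62 ± 1.02 cpm. Without DY131, the cholesterol exporter of lysosomes NPC1 was at 373 ± 4.94 cpm in DU145-pc3.1 and 581 ± 12.6 cpm in DU145-Esrrb cells, and the elongase ELOVL2 at 71.8 ± 3.82 and 115 ± 7.75 cpm. Both rose, by 0.64 and 0.68 on the log2 scale, and were singled out after their values were seen. In this comparison 1 of the 26 passed the test and was higher, and of the 39 genes 1 was higher and 1 lower. Over all tested genes 1.68% rose and 2.50% fell.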

How the data were processed

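The deposited values are raw counts per gene, which the authors made with MULTICOM-MAP after trimming single-end 50-base reads (FASTX-Toolkit) and aligning them to hg18 (TopHat2). The submitters' processing notes also name edgeR. The table gives 1 heading to both libraries of treated DU145-Esrrb cells, which were therefore assigned to the group without a number. The 31 members and all gene lists were chosen with earlier results of these data known.

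The counts were analysed as deposited in R 4.3.3 with edgeR 4.0.16. Genes needed 1 cpm or more in 2 or more libraries, counts were TMM-normalized, and all 8 libraries entered 1 model of the 4 groups with quasi-likelihood F tests and Benjamini-Hochberg adjustment over all tested genes. A call needed an adjusted p under 0.05, and the fold threshold was an absolute log2 fold change of 1. Group values are means ± SD of 2 libraries. The p-values rest on a spread estimated from all 8 libraries and shared across genes, and not on the spread of the compared libraries alone. Precision is limited by the counted reads, where 3 counts equal 0.255 to 0.391 cpm. Alternatives were edgeR's exact test, DESeq2 1.42.0, other scalings and filters, each library left out, a replicate block, and corrections for length with GC content and for junction share.

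Transcript properties came from GENCODE transcripts on GRCh38, not hg18. The model was tested on simulated counts. With 200 genes changed in treated DU145-Esrrb cells, it recovered 200 and made 10 false calls among 13642 genes. A second simulation changed no gene but gave those libraries a bias with junction share, of a size not fitted to these data. There the uncorrected model called 6060 of 13672 genes, and the corrected one called 0 of 13488. All members are named, with full statistics for those past both thresholds and for up to 3 with the largest change in each comparison. Of other pathway genes past both thresholds in a comparison, up to 5 are named, and a gene that met this rule is not reported here. ESRRB was not a member and served as a check of the labels. Python 3.11.15 with pandas 2.3.3 and matplotlib 3.10.9 was used for summaries and figures.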

Additional observations from a re-analysis of the deposited data

Results flagged for a closer look

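The members below responded differently to DY131 in the pools, by the interaction term of edgeR's quasi-likelihood model at an adjusted p under 0.05, and values are the log2 change in DU145-Esrrb minus that in DU145-pc3.1 cells. The fall was deeper in DU145-Esrrb cells for LSS (-1.12), FDPS (-0.98), FASN (-0.71), MVK (-0.61), SQLE (-0.54), FADS2 (-0.53), STARD4 (-0.52), ACAT2 (-0.46), MVD (-0.43), ACLY (-0.34), ACACA (-0.34) and ACSS2 (-0.31). The difference was in the other direction for SC5DL (0.31), EBP (0.35) and ELOVL6 (0.64). Junction share moved with these differences over all genes (Spearman's correlation -0.46), and ACSS2, ACLY, ACACA, MVK, MVD and SC5DL did not keep their calls when it was corrected for. Over all alternatives the call was lost in 10 for ACSS2, 8 for SC5DL, 6 each for ACACA and MVK, 3 each for MVD and EBP, and 1 for ACLY. Groups of 2 libraries were too small to look for single outlying libraries.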

How the results depend on the processing

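The limits are those of 2 libraries a group, of a table of counts without its reads, and of the trend with junction share. With any one library left out, the number of members past the test was 0 to 4 for Esrrb without DY131, 16 to 21 for DY131 in DU145-pc3.1, 24 to 26 for DY131 in DU145-Esrrb, 14 to 24 for Esrrb with DY131 and 10 to 25 for the interaction, where 1 to 2 passed the fold threshold. The medians of the sterol arm in the same order were -0.0115 to 0.0570, -0.43 to -0.36, -0.69 to -0.60, -0.27 to -0.0933 and -0.32 to -0.15, and those of the fatty acid arm 0.0462 to 0.15, -0.41 to -0.27, -0.51 to -0.47, -0.26 to -0.0911 and -0.36 to -0.24. SCD for Esrrb with DY131 went to -0.14 without replicate 1 of DY131-treated DU145-pc3.1 cells. For Esrrb without DY131, 2 members passed without the filter on low counts and 2 with only the libraries compared. The interaction had 9 members past the test with DESeq2, and 2 past both thresholds with library size alone and with a minimum of 10 counts per library.

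Correcting for junction share left 3 members past both thresholds for DY131 in DU145-Esrrb and 0 for Esrrb with DY131. It moved the sterol median for DY131 in DU145-pc3.1 to -0.37, and the fatty acid medians to -0.30 there, -0.38 for DY131 in DU145-Esrrb, 0.13 for Esrrb with DY131 and -0.0498 for the interaction. It turned HSD17B7 to 0.50 for DY131 in DU145-Esrrb, ACLY to 0.14 for Esrrb with DY131 and 0.0834 for the interaction, and ACSS2 to 0.0828 for the interaction. Correcting for length and GC content moved the sterol medians to -0.30 for DY131 in DU145-pc3.1, -0.57 in DU145-Esrrb and -0.12 for Esrrb with DY131, and the fatty acid medians for DY131 to -0.31 and -0.63. With library size alone the sterol median for DY131 in DU145-Esrrb was -0.71, and the fatty acid medians were -0.38 for DY131 in DU145-pc3.1, -0.54 in DU145-Esrrb and -0.33 for the interaction. With a minimum of 10 counts per library the fatty acid medians were -0.52 for DY131 in DU145-Esrrb, -0.20 for Esrrb with DY131 and -0.35 for the interaction, and with only the libraries compared -0.20 for Esrrb with DY131. The cause of these shifts was not tested.

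With a replicate block over the 6 numbered libraries, 18 members passed for DY131 in DU145-pc3.1 and 0 for Esrrb without DY131, the same as in the 6 numbered libraries without the block (18 and 0). Deviations of libraries with the same number in their sample titles correlated at 0.09, 0.02 and -0.07, which showed no pairing by these numbers. The column headings number some of these libraries otherwise, and a pairing by the headings was not tested. No paired analysis was possible for the other comparisons because the treated DU145-Esrrb columns have no number.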
